A study of Mus musculus with 48 samples.

Results

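Fatty acid and triglyceride synthesis was followed through 36 named genes, from the enzymes that supply acetyl-CoA to those that close the triglyceride molecule, in liver and in 3 nervous tissues (midbrain, cerebellum and spinal cord) of mice lacking full-length TIA-1, an RNA-binding protein of stress granules. Of the 36, 33 had at least 1 probe set named for them on the array, 67 probe sets in all, and Scd2, Srebf1 and Agpat2 had none named here and were not analysed. Each of the 33 genes was represented by its brightest probe set, the one with the highest mean over all 48 arrays, out of 17097 genes and 45037 probe sets measured. They are listed by their known function in the pathway.

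Fatty acid synthesis starts in the cytosol, where citrate carried out of mitochondria is cleaved to acetyl-CoA. Acetyl-CoA carboxylase turns it into malonyl-CoA, fatty acid synthase joins malonyl units into palmitate, and elongases and desaturases lengthen the chain and place double bonds. Acyl-CoA synthetases activate fatty acids, and glycerol-3-phosphate acyltransferases, AGPATs, lipins and DGATs esterify them step by step to triglyceride. Liver makes fatty acids after feeding, under insulin through SREBP-1c and under glucose through ChREBP (the product of Mlxipl), while in the nervous system the same enzymes serve membranes and myelin.

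Total RNA was hybridised to Affymetrix mouse genome arrays that read the 3′ end of transcripts, 1 array for each tissue of each mouse. The 16 groups of 3 mice were wild-type (WT) and Tia1 knockout (KO) mice on a background labelled C57Bl/6 (C57BL6/J in the study's methods), at 3 and at 6 months of age, with food ad libitum, each sampled in the 4 tissues. The KO allele recombines exon 4 of Tia1 in every cell, which leaves a shortened mRNA and no full-length protein. The series description calls the controls littermates, whereas the study's methods describe homozygous KO matings and WT mice bought from a vendor, so that genotype and colony of origin cannot be told apart. The mouse numbers 1 to 3 (WT) and 122970, 122972 and 122973 (KO) recur at both ages and were taken as separate mice. Sex is not labelled, and Xist lay between 2.66 and 3.74 and the Y-linked Eif2s3y between 7.07 and 8.8 on every array.

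Levels are log2 intensities after background correction, quantile normalisation and summary by Robust Multichip Average (RMA). The median of all values was 4.17, and arrays of 1 group correlated at 0.985 or more. The probe set at exon 4 of Tia1 was 3.45-fold to 5.1-fold lower in KO than in WT nervous tissue. In liver it was 1.7-fold lower at 3 months (adjusted p = 7.02e-05) and 1.31-fold lower at 6 months (adjusted p = 0.0402). Hepatocyte markers summed to between 15.93 and 16.07 on every liver array. In nervous samples their sum reached 13 in cerebellum, 12.6 in midbrain and 7.25 in spinal cord. At most 1 of the 9 markers had a group mean above the median of all values there. Neuron markers summed to between 14.24 and 14.47 in every nervous sample and to at most 8.81 in liver. These lists separated liver from nervous samples as labelled. In whole tissue, fewer cells of a type and less RNA per cell cannot be told apart.

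Liver arrays varied more than the others. The median SD within groups was 0.218 in liver against 0.133 in cerebellum, 0.122 in spinal cord and 0.115 in midbrain, so a test that shares 1 spread among the tissues takes the spread of liver as smaller than it was. Liver values are therefore given from the limma fit of all 48 arrays together with the fit of liver alone, and "rose" and "fell" are used in liver only of genes that passed an adjusted p of 0.05 in both. In the liver of 3-month mice, 6 skeletal muscle markers summed to 10.98 in KO 122972 and to 8.38 in WT 2, against 5.88 to 6.27 on the other liver arrays. Of 6 adipocyte markers, Adipoq stood at 7.01 in KO 122972 and 6.28 in KO 122973 against at most 3.91 elsewhere in liver, and 5 of the 6 were above the median of all values in that group against 3 in the others, while the summed level of the list ranged from 12.24 to 12.44 in the 3 KO mice and from 12.19 to 12.31 in the 3 WT mice. The part of these muscle and adipocyte transcripts in the liver results was not tested, and values without those 3 arrays are given below.

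In WT mice most genes of the pathway were brighter in liver. Of the 33, 26 were higher in liver than in the mean of the 3 nervous tissues and 6 were lower (limma, adjusted p under 0.05), where 47.4% of all probe sets were higher and 35.4% lower. Levels of different probe sets cannot be ranked against each other, so each statement compares 1 gene between tissues.

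The largest differences belonged to elongases, a regulator and an enzyme of the last step. Elovl3, an elongase of saturated and monounsaturated chains, averaged 9.81 ± 0.14 (SD, n = 6 WT mice of both ages) in liver and 2.82 to 3.10 in the nervous tissues, a difference of 6.87 (SE 0.07) on the log2 scale. Mlxipl, which encodes the glucose-responsive factor ChREBP, averaged 9.97 ± 0.16 in liver against 3.5 to 4.62 elsewhere (difference 5.87, SE 0.08). Dgat2, which adds the last acyl chain of triglyceride, differed by 4.82 (SE 0.08). Elovl2, an elongase of polyunsaturated chains, differed by 4.47 (SE 0.08), and Acacb, the carboxylase at the outer mitochondrial membrane whose malonyl-CoA restrains fatty acid oxidation, by 4.09 (SE 0.10). In nervous tissue the WT means of Elovl3, Mlxipl and Acacb lay between 2.82 and 4.72, near or below the median of all values, which makes any KO difference there one between dim signals.

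The 6 genes that were lower in liver were Elovl4 (-4.60, SE 0.06), Elovl7 (-4.23, SE 0.13), Agpat4 (-2.07, SE 0.11), Acsl3 (-1.78, SE 0.06), Agpat1 (-1.12, SE 0.06) and Fads3 (-1.06, SE 0.08). Elovl4 makes very long chains known from retina and brain, and Elovl7 works on saturated long chains. Elovl4 and Elovl7 were at 3.69 ± 0.34 and 3.38 ± 0.49 in liver, below the median of all values, and at 7.98 to 8.68 and 7.02 to 8.62 in nervous tissue. Mogat1, an acyltransferase of monoacylglycerol, passed in neither direction (0.17, adjusted p = 0.201).

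Among the nervous tissues, spinal cord, which is rich in myelin, exceeded cerebellum in 27 of the 33 genes and was lower in 4, where 52.4% of all probe sets differed. It exceeded midbrain in 21 and was lower in 5 (30.1% of all probe sets), and cerebellum exceeded midbrain in 3 and was lower in 25 (47.1%). Fasn, the fatty acid synthase, stood at 9.51 ± 0.10 in spinal cord, 9.30 ± 0.04 in midbrain and 8.46 ± 0.14 in cerebellum, and at 10.9 ± 0.31 in liver. Scd1, the desaturase that makes oleate from stearate, followed the same order with 11.4 ± 0.09, 10.9 ± 0.15 and 9.85 ± 0.28, and 12.5 ± 0.10 in liver. Thrsp, the small lipogenic protein Spot 14, did not: cerebellum (9.35 ± 0.10) was above spinal cord (8.55 ± 0.17) and midbrain (7.17 ± 0.14).

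**Figure D1:**
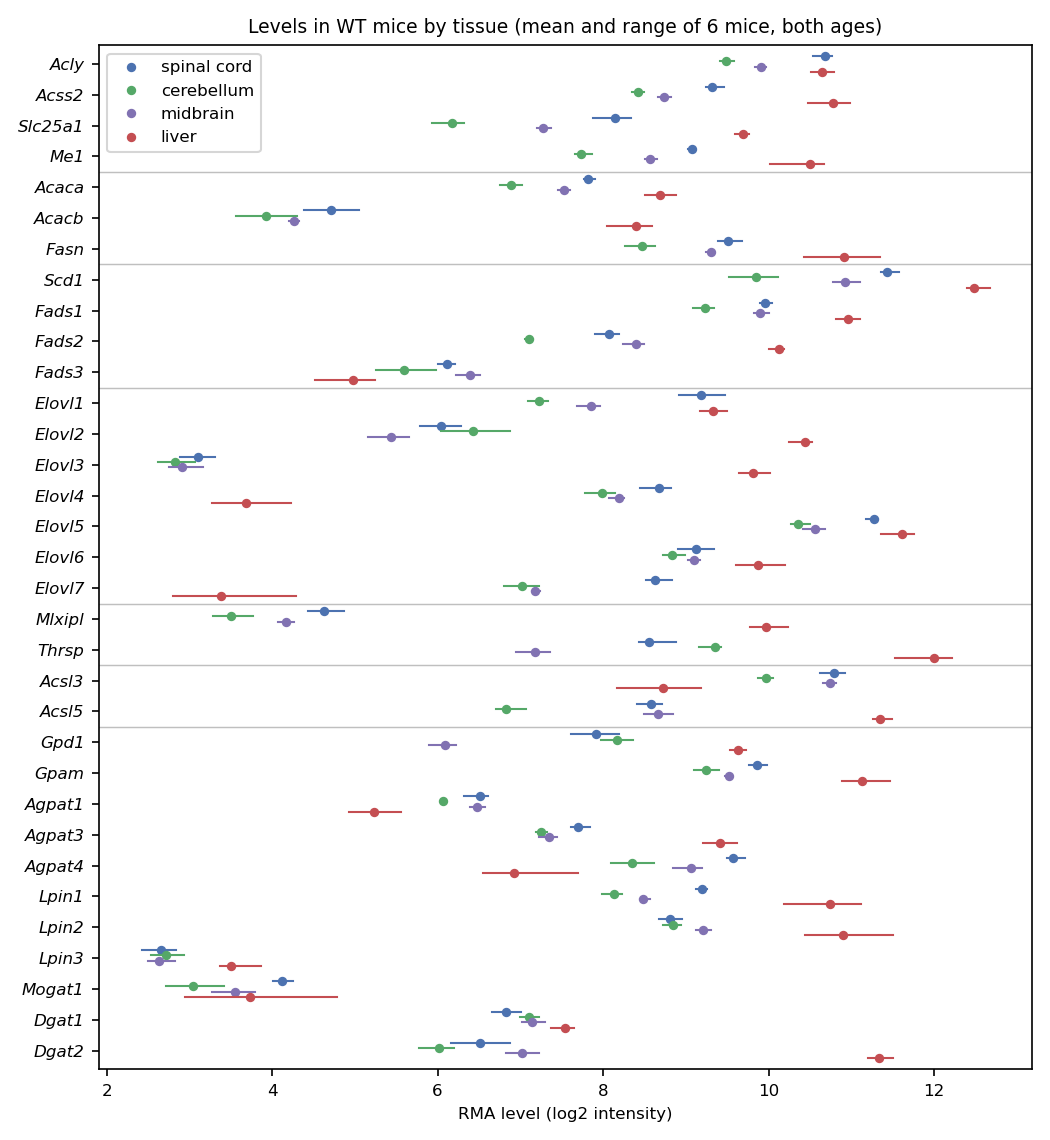
RMA level (log2 intensity, horizontal axis) of the 33 genes in WT mice, with the mean as a point and the range over 6 mice of both ages as a line, coloured by tissue and grouped by role from acetyl-CoA supply (top) to triglyceride assembly (bottom). Liver is the rightmost tissue for most genes, and is on the left for Elovl4, Elovl7, Acsl3, Agpat4, Agpat1 and Fads3.

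None of the 33 genes passed the threshold in KO nervous tissue. In spinal cord 0 of 33 passed at 3 months and 0 at 6 months, where 0.311% and 0.162% of all probe sets did. Cerebellum gave 0 and 0 (0.548% and 0.182%), and midbrain 0 and 0 (0.242% and 0.142%). Unadjusted p-values under 0.05 fell to 2 and 1 genes in spinal cord, 6 and 5 in cerebellum and 1 and 3 in midbrain, where 5.21% and 3.79%, 7.95% and 4.97%, and 6.53% and 4.61% of all probe sets had one. Fitting each tissue alone also called 0 in all 6 comparisons. The medians of the 33 changes lay between -0.05 and 0.04, against -0.009 to 0.017 over all probe sets. Of the 198 gene and tissue values, 13 reached an absolute log2 change of 0.3, and the largest was 0.44.

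**Figure D2:**
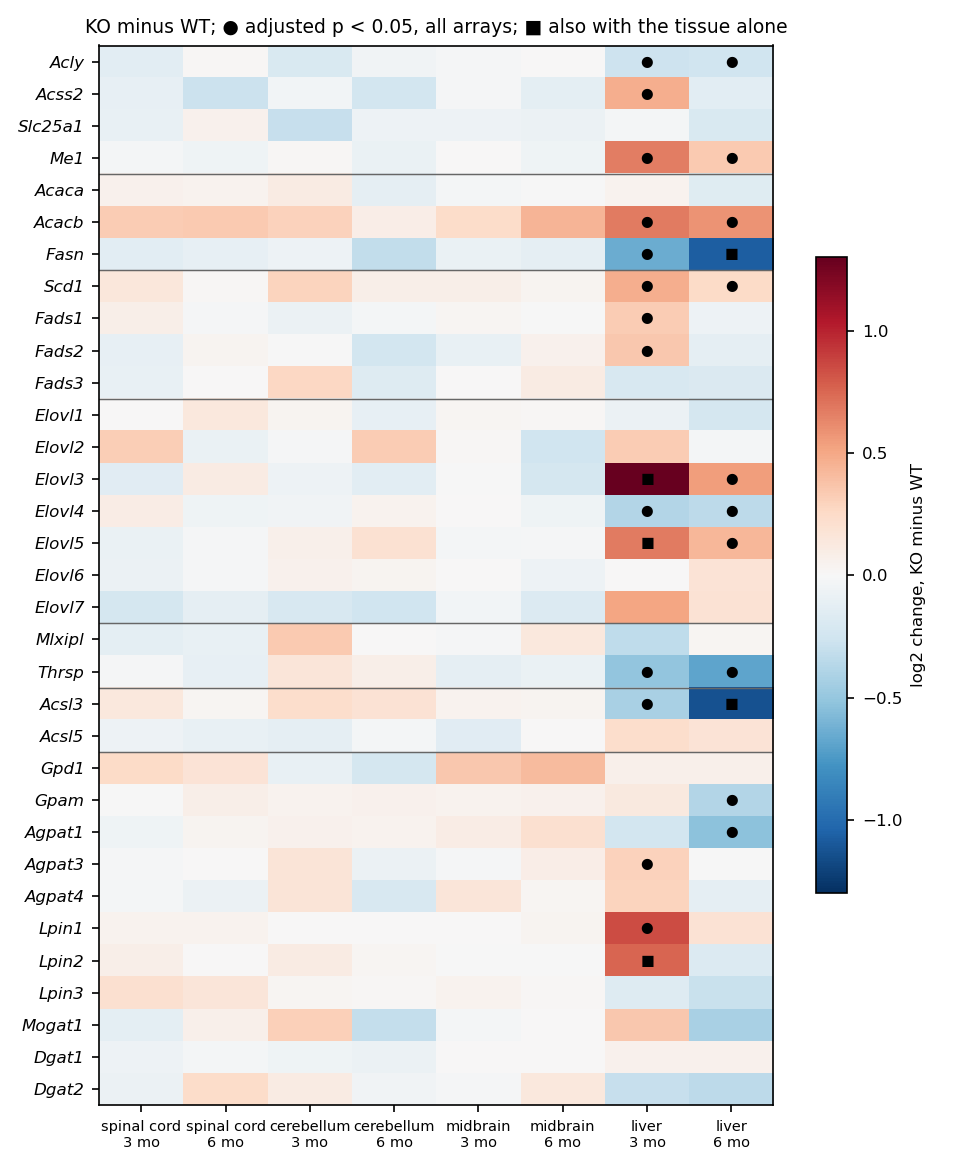
Log2 change (KO minus WT, colour scale from -1.3 to 1.3) of the 33 genes (rows, grouped by role) in 4 tissues at 3 and 6 months (columns); a dot marks an adjusted p under 0.05 in the limma fit of all 48 arrays and a square a gene that also passed with its tissue fitted alone. The marks are confined to the 2 liver columns, with squares for Elovl3, Elovl5 and Lpin2 at 3 months and for Fasn and Acsl3 at 6 months.

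Fasn was below WT in all 6 nervous comparisons, by 0.07 to 0.32 on the log2 scale. The 3 tissues of an age came from the same mice, so the 6 comparisons are not independent, here and below. The share of all probe sets that keep 1 sign in all 6 was not computed. In cerebellum the 3 WT mice of 6 months had 8.63, 8.58 and 8.56 and the 3 KO mice 8.36, 8.23 and 8.21, so the groups did not overlap, with a change of -0.32 (SE 0.11, adjusted p = 0.562). At 3 months cerebellar WT values of 8.38, 8.38 and 8.27 overlapped the KO values of 8.32, 8.34 and 8.16. Midbrain values of Fasn at 6 months were 9.35, 9.28 and 9.33 in WT and 9.21, 9.18 and 9.20 in KO mice, again apart but by only -0.12 (adjusted p = 1), and the midbrain groups of 3 months were apart by -0.09. Spinal cord groups overlapped at both ages. By their brightest probe sets, Acss2, which makes acetyl-CoA from acetate, and Elovl7 were the other genes below WT in all 6. The change of Acss2 was at most -0.28 (SE 0.09, spinal cord at 6 months, adjusted p = 0.501).

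By their brightest probe sets, genes above WT in all 6 nervous comparisons were Acacb, Acsl3, Scd1, Lpin1 and Lpin3, with Lpin1 and Lpin3 at 0.00 to 0.21. Dimmer probe sets of Scd1 (-0.18 to 0.14), Acacb (-0.20 to 0.27) and Acsl3 (-0.07 to 0.30) had both signs. A further dimmer probe set of Acsl3 stayed at 0.13 to 0.41. The brightest probe set of Acacb ranged from 0.09 to 0.44. In midbrain its WT values were 4.29, 4.20 and 4.33 at 3 months and 4.24, 4.30 and 4.26 at 6 months, and its KO values 4.30, 4.41 and 4.81, then 4.56, 5.01 and 4.54. The 6-month groups did not overlap (0.44, SE 0.18, adjusted p = 0.888), but all of these values are close to the median of the array. The lowest adjusted p of any gene in nervous tissue belonged to Scd1 in cerebellum at 3 months, where WT mice had 9.52, 9.56 and 9.74 and KO mice 9.80, 9.95 and 9.93 (0.29, SE 0.08, adjusted p = 0.0891). Both cerebellar groups of 6 months were higher still, WT at 10.1 ± 0.02 and KO at 10.2 ± 0.09, and there the change was 0.08 (adjusted p = 1).

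Gpd1, the enzyme that makes glycerol 3-phosphate, was singled out after its values were seen. In midbrain WT values were 6.06, 5.90 and 6.04 at 3 months and 6.22, 6.20 and 6.12 at 6 months, and KO values 6.37, 6.32 and 6.37, then 6.78, 6.47 and 6.52. KO mice were above WT at both ages without overlap, by 0.35 (SE 0.12, adjusted p = 0.359) and 0.41 (SE 0.12, adjusted p = 0.298). Fitting midbrain alone gave adjusted p = 0.0775 and 0.0806, and weighting each tissue by its own spread 0.0409 and 0.0255. Dimmer probe sets of Gpd1 in midbrain gave 0.14 to 0.30, none past the threshold. By the brightest probe set spinal cord was also above WT, with 0.25 and 0.18. Cerebellum went the other way, with -0.10 and -0.23.

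**Figure D3:**
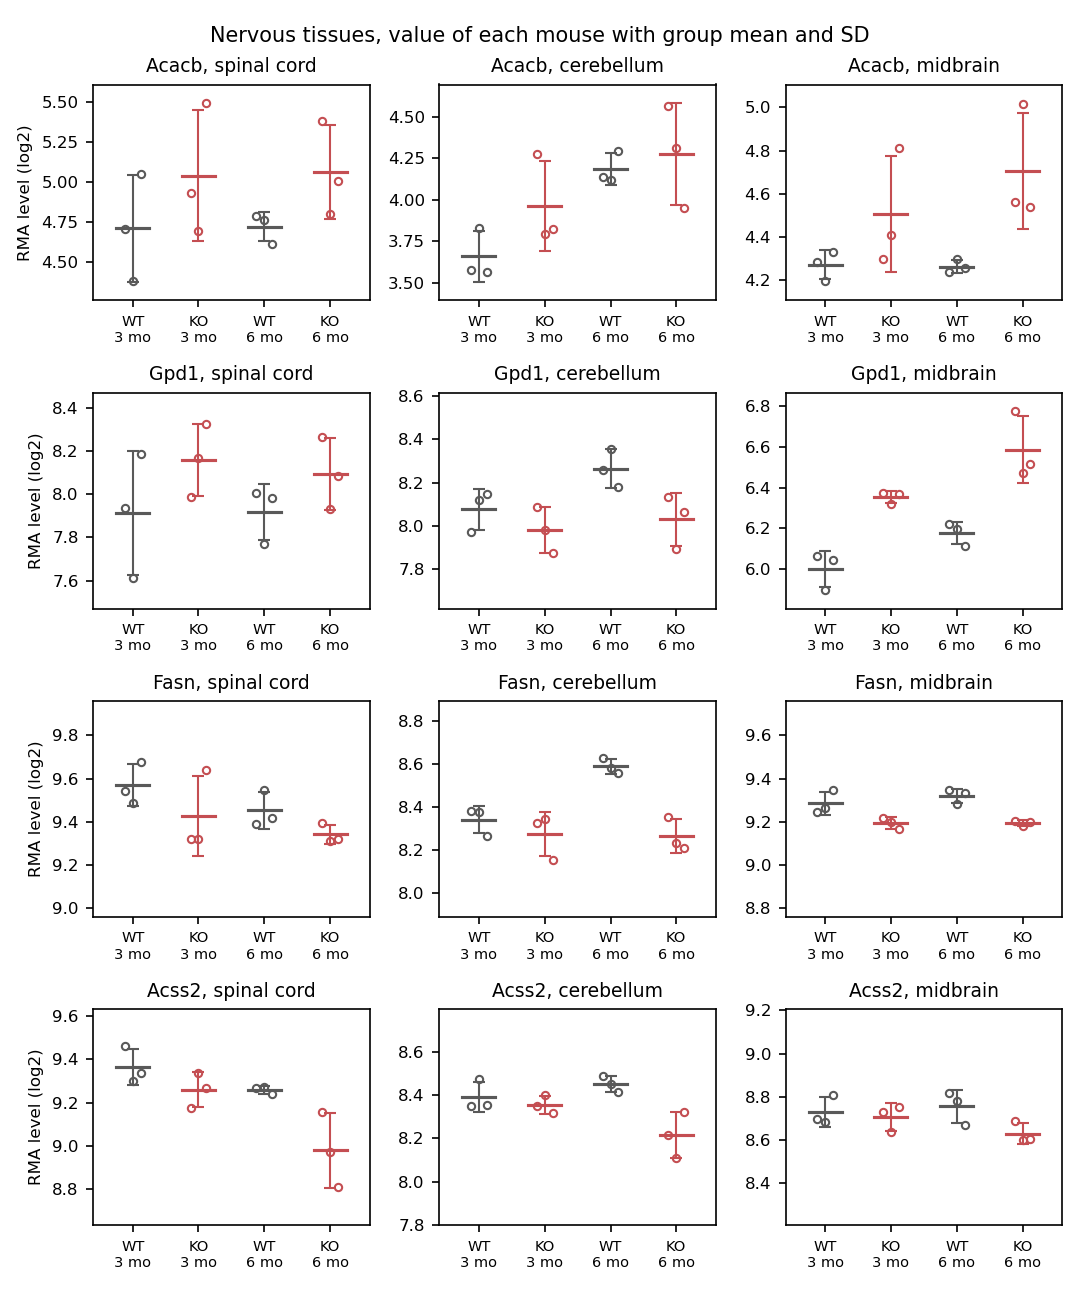
RMA level (log2) of Acacb, Gpd1, Fasn and Acss2 (rows) in spinal cord, cerebellum and midbrain (columns), each circle 1 mouse, with the group mean and SD as a bar, WT in grey and KO in red at 3 and 6 months; axes differ between panels. In midbrain Gpd1 separates upward and Fasn, by a smaller margin, downward at both ages. The values within each panel of Fasn and Acss2 span under 1 log2 unit.

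KO liver gave calls in both directions. With the spread shared among tissues, 11 of 33 genes were higher and 5 lower in KO liver at 3 months, where 4.92% and 4.53% of all probe sets were. At 6 months 5 were higher and 7 lower (5.68% and 5.81%). With liver alone, 3 were higher and 0 lower at 3 months (0.251% and 0.124% of all probe sets), and 0 were higher and 2 lower at 6 months (0.251% and 0.355%), with 16 and 10 of the 33 at an unadjusted p under 0.05 in that fit, against 10.5% and 11.9% of all probe sets. Weighting each tissue by its own spread gave counts between these, 7 higher and 1 lower at 3 months (0.961% and 0.646%) and 1 higher and 5 lower at 6 months (1.08% and 1.22%). KO and WT mice did not overlap in 20 of the 33 genes at 3 months, 15 of them with KO higher (15.8% of all probe sets were without overlap), and in 16 at 6 months, 10 of them with KO lower (18.2%). The median change of the 33 genes was 0.13 at 3 months and -0.12 at 6 months, against 0.001 and 0 over all probe sets.

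The count at 3 months changed when the arrays with muscle or adipocyte signal were left out. Loss of that signal and loss of arrays cannot be told apart in that setting. Without liver KO 122972, KO 122973 and WT 2, an alternative chosen after seeing the data that leaves 1 KO mouse assumed to vary like the others, 7 genes were higher and 1 lower (4.73% and 3.97% of all probe sets). None of the 5 genes that had been lower kept the call, and the 1 lower gene was Fads3 (-0.60, adjusted p = 0.0307), which had not been called with all arrays. Elovl3 (1.54, adjusted p = 1.81e-07), Elovl5 (0.66, adjusted p = 2.56e-04) and Lpin2 (0.65, adjusted p = 0.00115) stayed past the threshold, while Fasn was at -0.38 (adjusted p = 0.133), Thrsp at -0.38 (adjusted p = 0.172), Elovl4 at -0.33 (adjusted p = 0.16), Acly at -0.12 (adjusted p = 0.572), Acsl3 at -0.11 (adjusted p = 0.694) and Lpin1 at 0.56 (adjusted p = 0.0687). No gene passed with liver alone in that setting, where Elovl3 was nearest (adjusted p = 0.067). The counts at 6 months were 5 and 7 in that setting too.

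Of the enzymes that supply carbon and reducing power, Me1 (malic enzyme, a source of NADPH) and Acss2 were higher and Acly (ATP citrate lyase) lower in KO liver at 3 months with the shared spread, and none passed with liver alone. Acly (chromosome 11, 100476352 to 100528000, GRCm38.p6) had 10.58, 10.52 and 10.68 in WT and 10.51, 10.17 and 10.28 in KO mice of 3 months. At 6 months the WT mice had 10.69, 10.64 and 10.79 and the KO mice 10.30, 10.67 and 10.35, with 1 KO value inside the WT range. The change of Acly was -0.27 (SE 0.08, adjusted p = 0.0279 with all arrays and 0.503 with liver alone) and -0.26 (adjusted p = 0.0289 and 0.464). A dimmer probe set of Acly gave -0.24 (adjusted p = 0.175) and -0.27 (adjusted p = 0.12) with all arrays. Me1 differed by 0.67 (SE 0.09, adjusted p = 5.08e-06, liver alone 0.124) and 0.34 (adjusted p = 0.0151, liver alone 0.436). A second probe set of Me1, about as bright, gave 0.48 (adjusted p = 0.00942, liver alone 0.433) at 3 months. At 6 months it gave 0.17 (adjusted p = 0.421, liver alone 0.811). Acss2 differed by 0.47 (SE 0.09, adjusted p = 3.14e-04, liver alone 0.172) at 3 months and by -0.14 (adjusted p = 0.328) at 6 months. Slc25a1, the citrate carrier, lay at -0.03 and -0.20.

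Fasn and the carboxylase Acacb had changes of opposite sign in liver. Fasn (chromosome 11, 120805958 to 120825166) had 10.43, 10.87 and 10.76 in WT and 10.22, 10.04 and 9.88 in KO liver at 3 months. At 6 months the WT mice had 11.09, 11.34 and 10.96 and the KO mice 9.75, 10.33 and 10.09. All KO values were below all WT values at either age, and the gap was wider at 6 months, where the WT mice were highest. Fasn fell 2.10-fold at 6 months (log2 change -1.07, SE 0.11, adjusted p = 6.3e-09, liver alone 0.0224) and was 1.56-fold lower at 3 months (-0.64, SE 0.11, adjusted p = 1.32e-04, liver alone 0.192). Leaving out single mice kept the call with all arrays (adjusted p up to 1.89e-06), and in liver alone it was lost without KO 122970, KO 122973, WT 1 or WT 2 (up to 0.101).

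Acacb (chromosome 5, 114146321 to 114250761) passed with the shared spread and neither with liver alone nor with array weights. Its WT values were 8.57, 8.59 and 8.53 at 3 months and 8.25, 8.38 and 8.05 at 6 months, and its KO values 9.47, 9.12 and 9.13, then 8.94, 8.81 and 8.66. No KO mouse overlapped a WT mouse of its age. The change was 0.68 (SE 0.18, adjusted p = 0.0106, liver alone 0.0608) and 0.58 (SE 0.18, adjusted p = 0.0266, liver alone 0.0855). A dim second probe set of Acacb gave -0.08 and 0.17. The cytosolic carboxylase Acaca, the one that feeds fatty acid synthase, stood at 0.05 and -0.16 (adjusted p = 0.776 and 0.278).

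Of the 4 desaturases, 3 were higher at 3 months and 1 at 6 months with the shared spread. Scd1 (chromosome 19, 44394450 to 44407709) had 12.48, 12.45 and 12.41 in WT and 12.89, 12.98 and 12.88 in KO liver, and at 6 months 12.40, 12.67 and 12.48 against 12.74, 12.76 and 12.80. KO mice were above WT mice throughout, by 0.47 (SE 0.08, adjusted p = 7.74e-05, liver alone 0.0901) and 0.25 (SE 0.08, adjusted p = 0.0326, liver alone 0.357). A second, dimmer probe set of Scd1 gave a wider gap, with WT values of 9.83, 9.54 and 9.59 against KO values of 11.04, 11.04 and 11.06 at 3 months, and 8.62, 9.27 and 8.88 against 10.33, 10.10 and 10.07 at 6 months. By that probe set Scd1 rose by 1.39 (adjusted p = 2.14e-07, liver alone 0.00407) and 1.25 (adjusted p = 1.68e-06, liver alone 0.00627) on the log2 scale. Fads1 and Fads2, the delta-5 and delta-6 desaturases of polyunsaturated chains, were at 0.33 (adjusted p = 0.00188, liver alone 0.257) and 0.35 (adjusted p = 8.22e-04, liver alone 0.251) at 3 months and at -0.07 and -0.12 at 6 months. A dimmer probe set of Fads1 was at -0.12 at 3 months (adjusted p = 0.671), the opposite sign. At 6 months it was at -0.63 (adjusted p = 0.00233, liver alone 0.286). Fads3 was at -0.21 and -0.19 (adjusted p = 0.389 and 0.414).

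Among the brightest probe sets, Elovl3 had the largest change of the 33 genes, while dimmer probe sets of Scd1 (1.39) and Acsl3 (-1.55) had larger ones. Elovl3 (chromosome 19, 46131897 to 46135694) had 9.73, 9.79 and 9.64 in WT and 11.23, 10.78 and 11.02 in KO liver at 3 months, and 9.95, 9.76 and 10.02 against 10.35, 10.61 and 10.40 at 6 months. It rose 2.44-fold at 3 months (1.29, SE 0.12, adjusted p = 6.63e-10, liver alone 0.00232), and in liver alone the call held without any single mouse (adjusted p up to 0.0189). At 6 months it was 1.46-fold higher (0.54, SE 0.12, adjusted p = 0.00189, liver alone 0.117).

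Elovl5, which extends polyunsaturated chains, rose 1.61-fold at 3 months (0.68, SE 0.08, adjusted p = 4.84e-08, liver alone 0.0372). Elovl5 (chromosome 9, 77917365 to 77984519) had 11.75, 11.50 and 11.36 in WT and 12.22, 12.15 and 12.30 in KO mice. The 6-month values were 11.63, 11.68 and 11.73 in WT and 12.00, 12.19 and 12.14 in KO, without overlap (0.43, SE 0.08, adjusted p = 1.74e-04, liver alone 0.157). In liver alone the 3-month call was lost when any 1 mouse but WT 1 was left out (adjusted p up to 0.142). The second probe set of Elovl5 gave 0.64 (liver alone 0.0363) and 0.39, and the probe set used here has a suffix that marks probes shared with other transcripts.

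The other 5 elongases gave no call that held in both fits. Elovl6, the main elongase of palmitate, was at 0.00 and 0.18 (adjusted p = 0.99 and 0.346). Elovl2 was at 0.33 and -0.03, Elovl1 at -0.08 and -0.23, and Elovl7 at 0.51 and 0.19, none past the threshold. Elovl4 passed as lower with the shared spread (-0.38 and -0.34, adjusted p = 0.0233 and 0.0412), but all of its liver values were dim (group means of 3.09 to 3.94), and its second probe set gave -0.02 and 0.28.

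Thrsp was lower, as Fasn was. Thrsp (chromosome 7, 97412933 to 97417550) had 11.53, 12.07 and 11.95 in WT and 11.36, 11.53 and 11.14 in KO liver at 3 months, where the highest KO value lay just under the lowest WT value. At 6 months the WT mice had 12.11, 12.22 and 12.14 and the KO mice 11.49, 11.45 and 11.44, without overlap. The change was -0.51 (SE 0.12, adjusted p = 0.00525, liver alone 0.216) and -0.69 (SE 0.12, adjusted p = 1.28e-04, liver alone 0.0646). By its second probe set Thrsp fell by 1.03 on the log2 scale at 6 months (adjusted p = 1.82e-05, liver alone 0.0148), from 11.84, 12.09 and 11.89 in WT to 11.06, 10.77 and 10.89 in KO mice, and was at -0.78 at 3 months (liver alone 0.0676). Mlxipl (chromosome 5, 135089890 to 135139768) overlapped at both ages, with 9.78, 10.23 and 9.92 in WT against 9.78, 9.75 and 9.41 in KO at 3 months (-0.33, adjusted p = 0.148) and 9.94, 10.06 and 9.88 against 9.71, 10.18 and 10.07 at 6 months (0.03, adjusted p = 0.935).

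Acsl3, an acyl-CoA synthetase of lipid droplets and endoplasmic reticulum, had the most negative change of the brightest probe sets in KO liver. Acsl3 (chromosome 1, 78657825 to 78707743) had 8.81, 9.04 and 9.19 in WT and 7.82, 8.01 and 7.82 in KO mice of 6 months, a 2.19-fold fall (-1.13, SE 0.10, adjusted p = 1.77e-10, liver alone 0.0131). At 3 months the groups overlapped, with 8.17, 8.49 and 8.62 in WT and 8.29, 7.78 and 7.96 in KO (-0.42, SE 0.10, adjusted p = 0.00482, liver alone 0.384). Its dimmer probe sets gave -0.27 (adjusted p = 0.311) and 0.01 (adjusted p = 0.989) at 3 months. All 3 probe sets of Acsl3 were called at 6 months in both fits, the dimmer ones with -1.55 (liver alone 0.0276) and -1.22 (liver alone 0.0381). In liver alone the call was lost without KO 122973, WT 2 or WT 3 (adjusted p up to 0.0648). Acsl5, the abundant acyl-CoA synthetase of liver, was at 0.23 and 0.18 (adjusted p = 0.103 and 0.193), without overlap at either age.

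**Figure D4:**
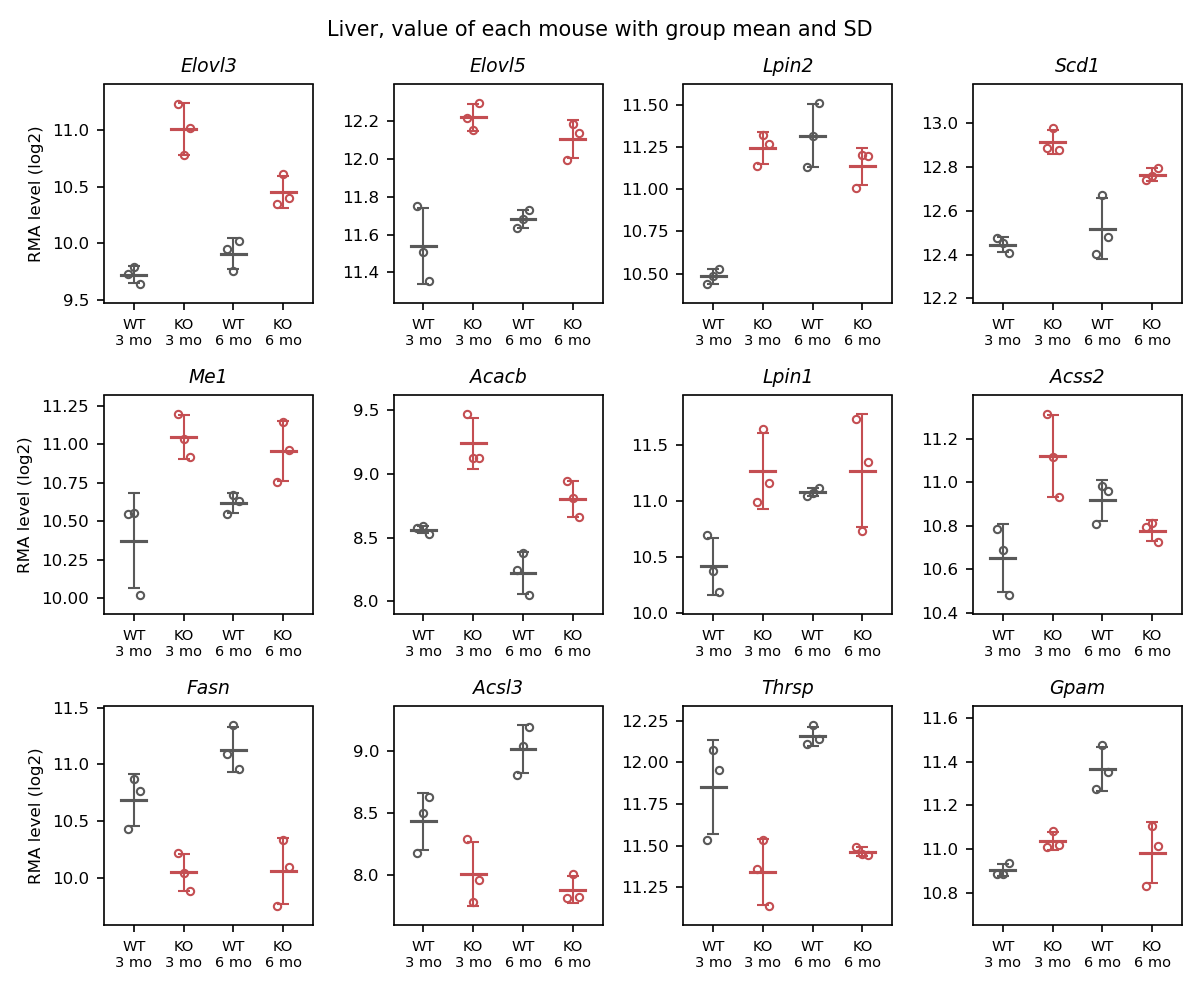
RMA level (log2) of 12 genes in liver, each circle 1 mouse, with the group mean and SD as a bar, WT in grey and KO in red at 3 and 6 months; axes differ between panels. Elovl3, Elovl5 and Scd1 separate upward and Fasn and Thrsp downward at both ages, and for Lpin2 the WT mice of 3 months are the group that stands apart.

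The start regions are shown for 5 of the genes called at both ages with the shared spread. By their brightest probe sets, Fasn, Thrsp and Acsl3 were lower and Acacb and Elovl5 higher. Acly, Me1 and Elovl4 were also called at both ages and had a window, but are not shown. With liver alone Elovl5 passed at 3 months and Fasn and Acsl3 at 6 months, and the brightest probe sets of Thrsp and Acacb at neither age. Each is RefSeq sequence (GRCm38.p6) from 250 bases before to 50 bases after a transcript start, read 5′ to 3′ on the gene's strand, at chr11:120824498-120824797 on the minus strand (Fasn), chr7:97417501-97417800 on the minus strand (Thrsp), chr1:78657575-78657874 on the plus strand (Acsl3), chr5:114165268-114165567 on the plus strand (Acacb) and chr9:77917115-77917414 on the plus strand (Elovl5). Capitals mark the letters of 4 motifs searched on both strands: CCAAT, the E-box CACGTG, the sterol regulatory element core CACCCCAC and the GC box GGGCGG. The windows of Fasn and Acacb lie at a start inside the gene's span. In Fasn 2 CCAAT matches on opposite strands overlap, and in Acsl3 a GC box match follows a CCAAT match directly.
Fasn: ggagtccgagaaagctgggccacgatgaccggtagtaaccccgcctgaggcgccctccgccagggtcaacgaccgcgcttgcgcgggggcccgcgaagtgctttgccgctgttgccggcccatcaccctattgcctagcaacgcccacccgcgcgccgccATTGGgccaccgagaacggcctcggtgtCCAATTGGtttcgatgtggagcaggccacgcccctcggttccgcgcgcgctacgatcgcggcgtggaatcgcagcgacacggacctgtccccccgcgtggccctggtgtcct
Thrsp: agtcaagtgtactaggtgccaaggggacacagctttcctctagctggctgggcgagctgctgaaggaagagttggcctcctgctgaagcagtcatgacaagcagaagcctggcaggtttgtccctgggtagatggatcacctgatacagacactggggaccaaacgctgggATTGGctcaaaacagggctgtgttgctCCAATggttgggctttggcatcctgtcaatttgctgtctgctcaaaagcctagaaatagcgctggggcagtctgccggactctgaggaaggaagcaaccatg
Acsl3: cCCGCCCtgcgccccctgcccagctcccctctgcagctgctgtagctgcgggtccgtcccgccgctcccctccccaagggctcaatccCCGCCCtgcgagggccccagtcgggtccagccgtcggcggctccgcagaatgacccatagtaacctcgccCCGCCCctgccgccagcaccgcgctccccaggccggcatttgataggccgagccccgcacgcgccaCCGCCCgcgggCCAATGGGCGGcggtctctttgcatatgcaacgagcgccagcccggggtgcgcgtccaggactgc
Acacb: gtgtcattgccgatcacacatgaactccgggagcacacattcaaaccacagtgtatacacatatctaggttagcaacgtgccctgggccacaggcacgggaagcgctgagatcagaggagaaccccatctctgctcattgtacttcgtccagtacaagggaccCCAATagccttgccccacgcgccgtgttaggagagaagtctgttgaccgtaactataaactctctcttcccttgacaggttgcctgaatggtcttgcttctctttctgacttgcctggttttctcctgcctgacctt
Elovl5: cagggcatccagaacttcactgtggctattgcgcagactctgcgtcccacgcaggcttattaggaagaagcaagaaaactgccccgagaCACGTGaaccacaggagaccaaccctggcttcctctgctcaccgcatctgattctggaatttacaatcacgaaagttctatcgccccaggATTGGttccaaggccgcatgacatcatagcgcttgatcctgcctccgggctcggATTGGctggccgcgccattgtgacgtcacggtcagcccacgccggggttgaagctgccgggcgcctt

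Counted from the start, Fasn holds CCAAT matches at -90, -62 and -59, and Thrsp at -79 and -52. Acsl3 holds 1 CCAAT and 5 GC box matches, Acacb 1 CCAAT match and Elovl5 2 CCAAT matches and 1 E-box. A window was given for 27 of the 33 genes. CCAAT was found in the windows of 19 of the 27 (70.4%, against 41.1% of 27025 genes), CACGTG in 6 (22.2%, against 8.09%), CACCCCAC in 2 (7.4%, against 3.3%) and GGGCGG in 16 (59.3%, against 38.2%). These are matches of letters, given without a test. A CCAAT match stood in the windows of all 5 genes shown, lower and higher ones alike.

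Among the enzymes of glycerolipid assembly, Lpin2, a phosphatidate phosphatase that makes diacylglycerol, rose 1.69-fold at 3 months (0.76, SE 0.09, adjusted p = 6.98e-08, liver alone 0.0215). Lpin2 (chromosome 17, 71183532 to 71249818) had 10.44, 10.49 and 10.53 in WT and 11.14, 11.32 and 11.27 in KO mice. At 6 months the WT mice were at 11.13, 11.31 and 11.51 and the KO mice at 11.01, 11.20 and 11.20 (-0.18, adjusted p = 0.18). The KO levels of both ages and the WT level of 6 months lay close together, and the WT mice of 3 months lay low. All 3 probe sets of Lpin2 had these signs, the dimmer ones with 0.85 and 1.16 at 3 months (liver alone 0.0083 and 0.00188) and -0.23 and -0.27 at 6 months. With any 1 mouse left out the liver-alone call of the brightest set was lost (adjusted p up to 0.0907).

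Lpin1, a lipin induced in fasting liver, was 0.85 higher at 3 months (SE 0.14, adjusted p = 7.25e-05, liver alone 0.205) with KO values from 11.0 to 11.6, and at 6 months its KO mice scattered from 10.7 to 11.7 around WT values of 11.0 to 11.1 (0.19, adjusted p = 0.419). Agpat3 was higher at 3 months (0.30, adjusted p = 0.00634, liver alone 0.282). Gpam, the mitochondrial glycerol-3-phosphate acyltransferase, was lower at 6 months (-0.38, SE 0.07, adjusted p = 1.53e-04, liver alone 0.15), from 11.4 ± 0.10 in WT to 11.0 ± 0.14 in KO mice. Agpat1 was lower at 6 months (-0.53, adjusted p = 5.81e-04, liver alone 0.22), by a probe set with liver group means of only 4.76 to 5.29. Its second probe set went in the opposite direction. That set gave 0.53 at 3 months (adjusted p = 0.0429, liver alone 0.442) and 0.38 at 6 months (adjusted p = 0.157). The other enzymes of assembly did not pass: Dgat1 was at 0.06 and 0.06, Dgat2 at -0.30 and -0.34 without overlap at either age (adjusted p = 0.207 and 0.129), Gpd1 at 0.07 and 0.07, Lpin3 at -0.17 and -0.29, Agpat4 at 0.29 and -0.12 and Mogat1 at 0.35 and -0.42.

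Seen across both ages, 18 of the 33 genes passed in liver with the shared spread at 1 age or both, against 18.5% of all probe sets. Of these, 5 were higher at both ages by their brightest probe sets (Acacb, Me1, Elovl3, Elovl5 and Scd1), against 1.04% of all probe sets. Another 5 were lower at both (Fasn, Thrsp, Acly, Acsl3 and Elovl4), against 0.888%. The dimmer probe sets of Acacb, Me1, Acly, Acsl3 and Elovl4 missed the threshold at 1 age or both. By their brightest probe sets, 5 genes passed with liver alone at 1 age and 0 at both. A dimmer probe set of Scd1 passed with liver alone at both ages (adjusted p = 0.00407 and 0.00627). With the shared spread, a further 6 genes were higher at 3 months only and 2 lower at 6 months only, and none passed in opposite directions. Of the 33 genes, 22 had the same sign at both ages, and the share of all probe sets that did was not computed. The 3-month and 6-month mice are separate groups with their own controls.

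**Figure D5:**
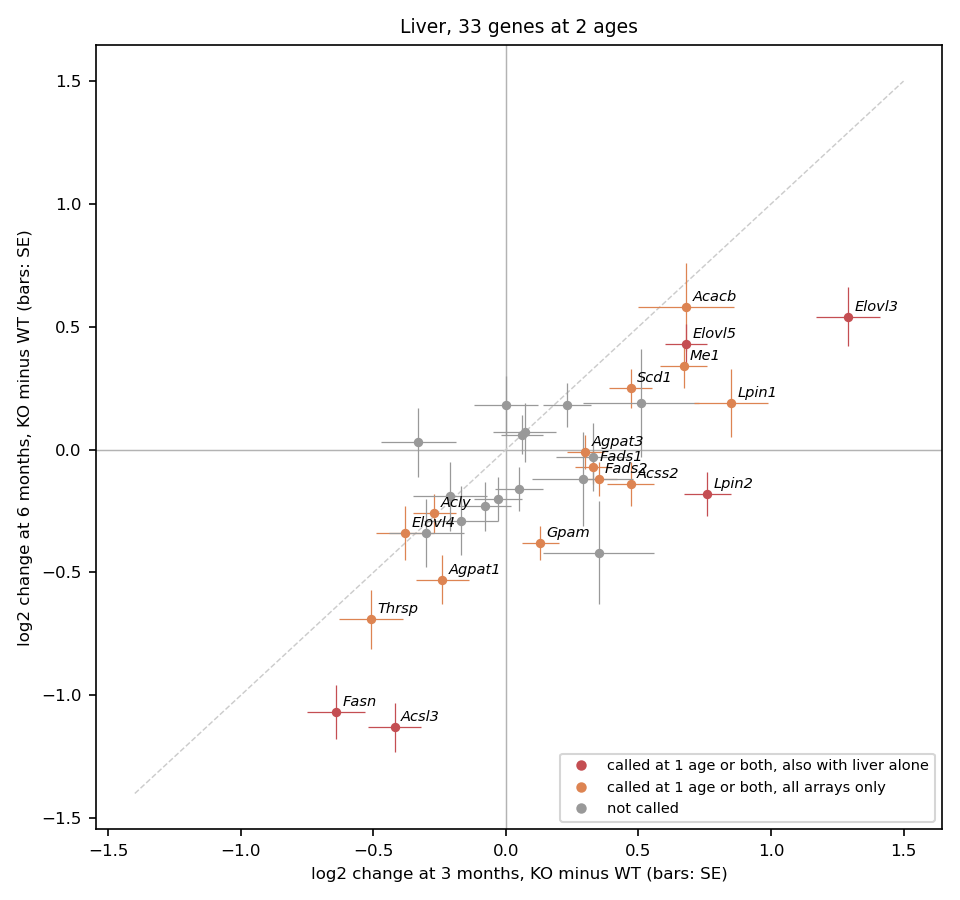
Log2 change (KO minus WT) in liver at 3 months (horizontal) and 6 months (vertical) for the 33 genes, with SE bars from the limma fit of all 48 arrays; red marks the 5 genes that also passed with liver alone, orange those called with all arrays only and grey those not called, and the dashed line marks equal changes. Of the called genes all but Acly and Elovl4 lie below the dashed line, with Lpin2 and Elovl3 farthest from it.

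The difference between the ages was tested directly. In liver 0 genes had a higher and 8 a lower KO effect at 6 than at 3 months (3.34% and 3.79% of all probe sets): Lpin2 (-0.94, SE 0.12, adjusted p = 2.67e-06), Elovl3 (-0.74), Acsl3 (-0.71), Lpin1 (-0.66), Acss2 (-0.61), Gpam (-0.52), Fads2 (-0.47) and Fads1 (-0.40). With each tissue weighted by its own spread, 2 passed, Lpin2 (adjusted p = 0.0045) and Acsl3 (adjusted p = 0.0462), and with liver alone 0 did, the nearest being Lpin2 (adjusted p = 0.123). Spinal cord, cerebellum and midbrain gave 0 each (0.0533%, 0.0577% and 0.0444% of all probe sets).

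Levels also differed between the ages within a genotype. Between 3 and 6 months 8 genes were higher and 1 lower in WT liver with the shared spread (10.7% of all probe sets changed), of which Lpin2 (0.83, SE 0.09, adjusted p = 8.57e-09) also passed with liver alone (adjusted p = 0.0125). Gpam (0.46), Acsl3 (0.58), Fasn (0.44), Lpin1 (0.66) and Mogat1 (1.18) were among the 8. In KO liver 0 were higher and 5 lower, Acss2, Elovl3, Elovl4, Fads1 and Fads2, by 0.25 to 0.56 (10.9% of all probe sets), none with liver alone. Cerebellum of WT mice had 1 gene, Scd1, higher at 6 months (0.49, SE 0.08, adjusted p = 2.3e-04, cerebellum alone 0.0208; 1.13% of all probe sets). The other comparisons of age gave 0: WT and KO spinal cord (0.242% and 0.091% of all probe sets), KO cerebellum (0.0844%) and WT and KO midbrain (0.258% and 0.00444%). Age and cohort cannot be told apart in these mice.

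Whether the KO effect differed between liver and the nervous tissues was tested in the fit of all arrays. At 3 months it was more positive in liver for 10 genes and more negative for 3 (3.23% and 2.78% of all probe sets), with Elovl3 (1.36), Lpin1 (0.83), Lpin2 (0.70) and Elovl5 (0.70) at the upper end and Acsl3 (-0.56), Fasn (-0.54) and Thrsp (-0.51) at the lower. At 6 months it was more positive for 3, Elovl3 (0.63), Me1 (0.41) and Elovl5 (0.38), and more negative for 5, led by Acsl3 (-1.22, SE 0.12, adjusted p = 2.11e-09) and Fasn (-0.89, SE 0.13, adjusted p = 9.98e-06) (3.48% and 3.65% of all probe sets). Weighting by tissue left 7 and 1 genes at 3 months and 0 and 4 at 6 months. By its brightest probe set, Acsl3 was above WT in all 6 nervous comparisons, by 0.03 to 0.23 and never past the threshold. In liver it was below WT at both ages.

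Genes around the pathway were read from further lists, in liver and with the shared spread unless stated. Beside the counts of each list below stand the shares of all probe sets. At 3 months 4.92% of all probe sets were higher and 4.53% lower, and at 6 months 5.68% and 5.81%. Of 17 genes that control SREBP, LXR and ChREBP, 2 were higher and 1 lower at 3 months and 1 higher and 2 lower at 6 months in liver. Insig2, an anchor that holds SREBP in the endoplasmic reticulum, rose by 1.09 (adjusted p = 1.91e-11, liver alone 0.0094) and 1.03 (adjusted p = 6.66e-11, liver alone 0.0106), and its relative Insig1, itself an SREBP target, fell by 1.00 at 6 months (adjusted p = 1.39e-08, liver alone 0.0201) after -0.34 at 3 months. Srebf2, which encodes SREBP-2, was at -0.41 at 6 months (adjusted p = 0.00644, liver alone 0.192).

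Of 18 genes of lipid droplets and lipolysis, 5 were higher at 3 months (4.92% of all probe sets). At 6 months 4 were higher and 1 lower (5.68% and 5.81%). Plin2, the main droplet coat of hepatocytes, rose by 0.64 (liver alone 0.0465) and 0.88 (liver alone 0.00848), Plin5 rose by 1.15 at 3 months (liver alone 0.0171) and Plin4 by 1.40 at 6 months (liver alone 0.0262). Of 21 further acyltransferases and glycerolipid enzymes, Gpat3, an acyltransferase of the endoplasmic reticulum that makes lysophosphatidate, rose by 2.00 at 6 months (adjusted p = 9.91e-10, liver alone 0.00905) and was at 1.39 at 3 months (liver alone 0.06), where 3 were higher and 2 lower at 3 months and 2 higher at 6 months. Among 16 genes of insulin and AMPK control, Mid1ip1, a partner of Thrsp that activates acetyl-CoA carboxylase, fell by 1.16 at 3 months (adjusted p = 9.4e-09, liver alone 0.0399) and was at -0.84 at 6 months (liver alone 0.11), 1 of 3 lower genes at 3 months and the 1 lower gene at 6 months. Of 14 genes of glycolysis and NADPH supply 2 were higher at 3 months and 0 changed at 6 months, and of 12 partners of elongation and desaturation 3 and 2 were higher, none of either list with liver alone.

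Lists of neighbouring programmes are given beside these genes. Among all probe sets, 4.92% were higher and 4.53% lower at 3 months, and 5.68% and 5.81% at 6 months. With liver alone these shares were 0.251% and 0.124% at 3 months and 0.251% and 0.355% at 6 months. Of 13 fasting and PPAR-alpha genes, 8 were higher at 3 months and 3 at 6 months, 3 and 0 with liver alone. Cyp4a10, an omega-hydroxylase under PPAR-alpha, was at 7.30, 7.52 and 6.63 in WT mice of 3 months and between 10.22 and 11.22 on the other 9 liver arrays, so the same WT group lay low for it as for Lpin2. Of 14 cholesterol synthesis genes, 13 were lower at 6 months (9 with liver alone, median -0.83) and 1 at 3 months, and their summed level was 14.08 to 14.27 in WT and 13.22 to 13.55 in KO mice of 6 months. Of 14 clock and clock output genes, 3 were higher and 4 lower at 3 months and 2 higher and 4 lower at 6 months, and Per3 fell by 0.91 at 3 months (adjusted p = 3.7e-09, liver alone 0.0275). Time of day, feeding before death and the part of these programmes in the changes of the 33 genes were not tested.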

How the data were processed

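Total RNA of 4 tissues of each mouse was hybridised to 48 arrays in 16 groups of 3. Per the labels and the methods, the authors background-corrected, quantile-normalised and summarised all arrays together by RMA in R 2.14.0, and the deposited values are log2 intensities. After removal of 104 control probe sets from 45141, 45037 remained, of which 28898 carry 1 gene symbol in the platform annotation, 551 several and 15588 none here. Members and lists were chosen with earlier results of these data known. A member was read from its brightest probe set.

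A model of the 16 group means was fitted to all arrays with limma 3.58.1 in R 4.3.3 (empirical Bayes, residual degrees of freedom 32), and p-values were adjusted by Benjamini-Hochberg over all 45037 probe sets at 0.05. Alternatives were each tissue alone, array weights per tissue, the mouse as a block, quantile normalisation within tissues, a dim filter that kept 28162 probe sets, nested F decisions, the mean of a gene's probe sets, each mouse left out, and, chosen after seeing the data, 3 liver arrays left out. The scripts were tested on simulated data. Genes given mouse by mouse were those called in both liver fits, Fasn, Scd1, Mlxipl and Thrsp, and the 3 with the most positive and the 3 with the most negative mean change over the 8 comparisons. Gpd1 and Acss2 were added after their values were seen. Precision is limited by 3 arrays a group, and the labels give no batch.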

Additional observations from a re-analysis of the deposited data

Results flagged for a closer look

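These values are differences between effects of the knockout, each past an adjusted p of 0.05 in the limma fit of all arrays, and the comparisons were chosen by the design. They were not weighed against any explanation.

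Between the ages, the KO effect in liver was lower at 6 than at 3 months for Lpin2 (-0.94), Elovl3 (-0.74), Acsl3 (-0.71), Lpin1 (-0.66), Acss2 (-0.61), Gpam (-0.52), Fads2 (-0.47) and Fads1 (-0.40) on the log2 scale. Lpin2 and Acsl3 kept the call when tissues were weighted by their own spread, and none did with liver alone.

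Between liver and the mean of the nervous tissues at 3 months, the KO effect in liver was more positive for Elovl3 (1.36), Lpin1 (0.83), Lpin2 (0.70), Elovl5 (0.70), Me1 (0.67), Acss2 (0.52), Fads2 (0.42), Acsl5 (0.34), Fads1 (0.32) and Scd1 (0.30). It was more negative for Acsl3 (-0.56), Fasn (-0.54) and Thrsp (-0.51). The second probe set of Fads1 had the opposite sign in liver at 3 months.

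At 6 months it was more positive in liver for Elovl3 (0.63), Me1 (0.41) and Elovl5 (0.38), and more negative for Acsl3 (-1.22), Fasn (-0.89), Thrsp (-0.65), Agpat1 (-0.63) and Gpam (-0.45). The second probe set of Agpat1 had the opposite sign in liver. With tissues weighted by their own spread, Acsl3, Fasn, Agpat1 and Gpam kept the call.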

How the results depend on the processing

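No called value of a member changed sign under any alternative. Of the 28 member values called in liver, 14 kept the call with array weights per tissue, 5 with each tissue alone, 28 with dim probe sets left out, 27 with quantile normalisation within tissues, 23 with nested F decisions, 21 with the mean of a gene's probe sets, 19 without the 3 liver arrays and 23 to 27 with 1 mouse left out. With the mouse as a replicate block (consensus correlation 0.0303) all 28 kept it, and the counts in liver were again 11 higher and 5 lower at 3 months and 5 higher and 7 lower at 6 months.

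Liver counts of genes higher and lower at 3 months were 3 and 0 with liver alone, 7 and 1 with array weights, 7 and 1 without the 3 arrays (the 1 was Fads3, newly called, and none of the 5 lower genes kept the call), and 3 lower with the mean of probe sets. At 6 months they were 0 and 2 with liver alone, and 1 higher with array weights. Lower KO effects at 6 than at 3 months in liver numbered 0 with liver alone and 2 with array weights. Between ages, WT liver gave 1 with liver alone and 5 with array weights, KO liver 0 and 0, and array weights gave 1 in WT spinal cord, 2 in WT cerebellum and 1 in WT midbrain. In the contrast of liver with nervous tissue, 3 months gave 6 higher and 1 lower without the 3 arrays and 1 lower with array weights, and 6 months 0 higher with array weights.

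In nervous tissue, nested F decisions called 1 gene in spinal cord at 6 months (Acss2), 1 and 3 in cerebellum (Scd1, then Acss2, Fasn and Fads2) and 1 and 2 in midbrain (Gpd1, then Gpd1 and Acacb). Array weights called 1 gene in midbrain at 3 months and 1 at 6 months, Gpd1 both times, and the dim filter called 1 in cerebellum at 3 months, Scd1.

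With 1 mouse left out, counts ranged from 2 to 5 lower in liver at 3 months, 2 to 5 higher in liver at 6 months, 1 to 4 lower and 1 to 4 higher in the contrast of liver with nervous tissue at 3 and 6 months, and 1 to 2 with age in WT cerebellum. The causes of these shifts were not tested. With 3 mice a group and the wider spread of liver, calls there rest on how that spread is estimated.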
